A study of Mus musculus with 2 samples.

Results

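The 43 genes described here act in DNA replication and mitosis. They were chosen by symbol, and all 43 were found among the 20668 genes named on the array, through 55 probes matched by RefSeq accession. RNA of retina from wild-type (WT) mice and from mice labelled Mef2d KO was compared at postnatal day 14, with 1 one-colour Agilent array per genotype. Mef2d codes for a MEF2 transcription factor, and the design sets retinas labelled as wild type and as Mef2d KO side by side. The allele, the strain and the number and sex of the animals are not given in the sources used here. With 1 array per genotype no difference has a replicate check, so no p-value is given.

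Cells copy their DNA in S phase and divide in mitosis. Cyclins and their kinases drive each step, the MCM helicase opens the DNA at replication origins, and checkpoint proteins hold chromosome separation back until the spindle is attached. Retinal neurons and glia arise from dividing progenitors around birth, and by the time the eyes open nearly all of them have left the cell cycle. Many of these genes are also used outside division, and D-type cyclins, for example, are present in non-dividing retinal cells.

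Levels are log2 values of the scanner software's processed signal relative to each array's 75th percentile, a signal of 807 for WT and 858 for the other array. A difference is the level on the array labelled Mef2d KO minus that in WT, and ± is the scanner software's error for 1 such difference. It leaves out variation between animals. All 16 retina markers were well above background on both arrays, among them Rcvrn (recoverin) at 7.65 and 7.27 and Gnat1 (rod transducin) at 7.72 and 7.29. On the array labelled Mef2d KO, Mef2d was higher, at 0.34 against -0.091 in WT (0.43 ± 0.20). Where its probes lie relative to any deletion is not known here, so the label was not checked by this gene and directions are those of the labels. The arrays also differed in the female-specific transcript Xist, by 8.77, while the Y-linked Eif2s3y was read on both at 2.66 and 2.30. Genotype and sex composition cannot be told apart here.

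Transcripts of the division machinery were still read in both retinas, and most of their levels were close. Of the 43 genes, 37 (86%) were well above background on both arrays, against 78.3% of all genes. Another 3 were read only on the array labelled Mef2d KO, 0 only in WT, and 3 on neither. Of all 20668 genes, 136 were read only on the array labelled Mef2d KO, 923 only in WT and 3405 on neither. Among the 37, Aurka was at least 2-fold higher and none was at least 2-fold lower, with Bub1b just inside that limit at -0.99. The background over all 16193 genes well above background on each array was 0.624% past 2-fold upward and 1.74% downward. At 1.5-fold the higher genes were Aurka, Cdt1 and Ccna2, and the lower ones Bub1b, Cenpe and Bub1. These 3 and 3 of 37 (8.11% each) compare with 2.08% higher and 5.45% lower over all genes. Of the 28 genes with a mean level of at least -3, 3 were higher (10.7%) and 2 lower (7.14%). All genes at such levels gave 1.87% higher and 2.18% lower.

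The other 31 genes lay within 1.5-fold. The median difference of the 37 was 0.0036, against -0.0060 over all genes, and 18 of them were negative and 19 positive. The range from their 25th to their 75th percentile was 0.32, against 0.27 over all genes. For 23 of the 37 (62.2%) the difference was no larger than the scanner error, as for 68.2% of all genes. In whole tissue, a change in the number of dividing cells and a change in RNA per cell cannot be told apart.

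**Figure D1:**
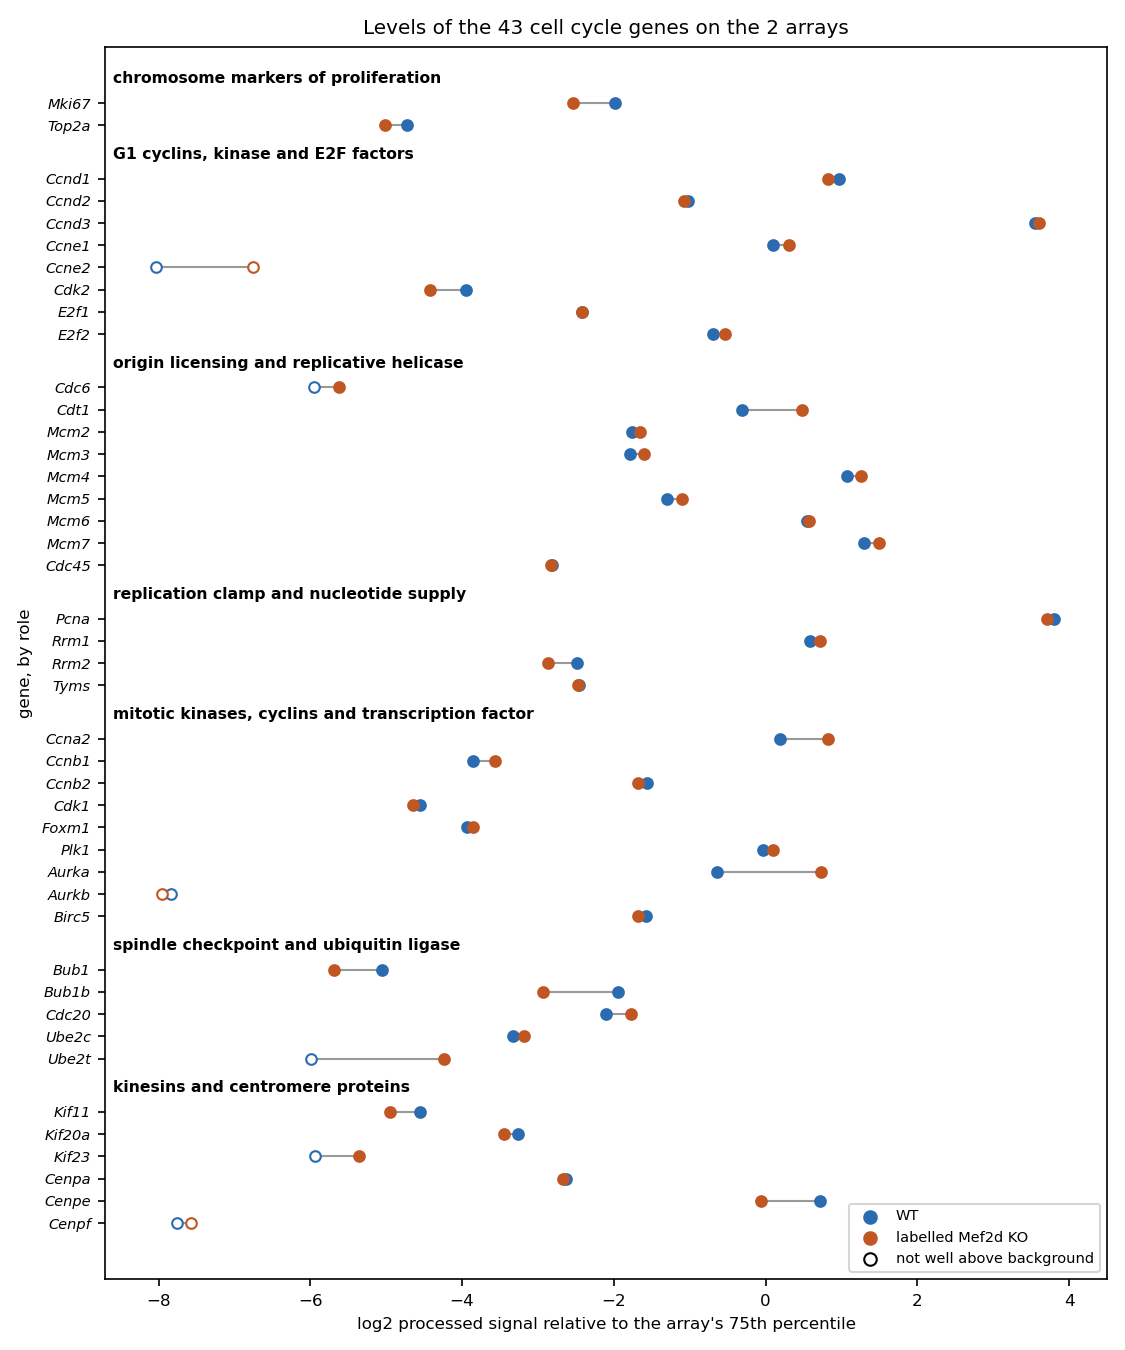
Log2 level of each of the 43 genes on the WT array (blue) and the array labelled Mef2d KO (orange), by role, relative to each array's 75th percentile; open circles were not well above background and the line joins the values of 1 probe. Levels of different probes are not on 1 scale, so only the distance within a row can be read; it is widest among filled pairs for Aurka (difference 1.37).

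Among the genes that carry a cell from G1 into S phase none was 1.5-fold apart. D-type cyclins bind CDK4 and CDK6 and inactivate the RB protein. Ccnd1 stood at 0.97 in WT and 0.83 on the array labelled Mef2d KO, Ccnd2 at -1.02 and -1.08, and Ccnd3 at 3.55 and 3.60. Their differences of -0.14, -0.060 and 0.053 were all smaller than the scanner error of 0.20, a second Ccnd3 probe gave -0.056, and with median scaling all 3 were positive. The D-type cyclins were thus not separated beyond the error of the spot measurement. Cyclin E works with Cdk2 at the start of replication. Ccne1, cyclin E1, stood at 0.092 and 0.32, a difference of 0.22 ± 0.20, and its dimmer probe gave 0.43. Ccne2 was not well above background on either array. Cdk2, at -3.95 and -4.42, differed by -0.47 ± 0.25, and by -0.11 with cyclic loess normalization and -0.18 with quantile normalization. E2f1 and E2f2 encode activating E2F factors, which switch on S phase genes. E2f1 was level (-2.43 and -2.42), and E2f2 stood at -0.69 and -0.53 (difference 0.16 ± 0.20).

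Replication licensing genes had mostly positive differences. The Mcm2 to Mcm7 proteins form the ring of the replicative helicase in equal numbers. The 6 subunits differed by between 0.021 (Mcm6) and 0.21 (Mcm7), with a median of 0.18. None was negative under cyclic loess, quantile normalization or normexp background either. The signal of Mcm7 was 1980 in WT and 2428 on the array labelled Mef2d KO. Mcm4 stood at 1.07 and 1.25, Mcm5 at -1.30 and -1.10, and Mcm2 at -1.77 and -1.66. Mcm3 (0.19), Mcm4 (0.18), Mcm5 (0.20) and Mcm2 (0.11) lay between the lowest and highest. Each of these shifts was about as large as the scanner error of 0.20 to 0.21 or smaller. Median scaling adds the same amount to every difference, so it could not turn these negative. It moved the median of all genes to 0.17 and that of the 6 subunits to 0.36.

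Cdt1, which loads the MCM ring on origins together with Cdc6, was the exception in size. Its signal was 653 in WT and 1202 on the array labelled Mef2d KO, levels of -0.31 and 0.49, a difference of 0.79 ± 0.20 or 1.73-fold. The value lay between 0.69 (normexp background) and 0.97 (median scaling) under other ways of processing. Cdc45, a helicase cofactor, was level at -2.81 and -2.82. Cdc6 itself was near the detection limit and was read only on the array labelled Mef2d KO, by 1 of its 2 probes (signal 13.0 and 17.4). The lower bound on its log2 difference was 0.14, within the scanner error of 0.48. With normexp background the difference was -0.0072, but that setting adds an offset of 50, above both signals, which draws dim differences toward 0. The other probe, not well above background on either array, gave -0.28. Gmnn, geminin, the inhibitor of Cdt1, stood at -2.06 and -1.89 (0.16 ± 0.21) and was named after its value was seen.

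The replication clamp and the enzymes of nucleotide supply showed no 1.5-fold difference. Pcna, the sliding clamp that holds DNA polymerase, stood at 3.80 in WT and 3.71 on the array labelled Mef2d KO, a difference of -0.094 ± 0.20. Ribonucleotide reductase makes deoxyribonucleotides from a large subunit, Rrm1, and a small one, Rrm2. Rrm1 stood at 0.59 and 0.72 (0.13 ± 0.20) and Rrm2 at -2.49 and -2.87 (-0.39 ± 0.21). The large and small subunit therefore had differences of opposite sign. Tyms, thymidylate synthase, was level at -2.46 and -2.48.

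Among the mitotic kinases and cyclins, Aurka stood apart. Aurka encodes Aurora A, the kinase of centrosomes and spindle poles, which is also found at the cilium base. Its signal was 518 in WT and 1422 on the array labelled Mef2d KO, levels of -0.64 and 0.73, a difference of 1.37 ± 0.20 or 2.59-fold. It was past 2-fold under each of the 6 ways of scaling and background correction, with values from 1.22 (normexp background) to 1.55 (median scaling). Aurka has 1 probe on the array, so a second reading was not available. Its partner Tpx2, chosen after its value was seen, differed by -0.23 ± 0.24. Aurkb, the sister kinase of the chromosomal passenger complex, was not well above background on either array. Birc5, survivin of that complex, was level by its brightest probe (-1.57 and -1.69), while its dimmer probes gave -0.60 and -1.02.

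The genes on both sides of Aurka were higher too. Fam210b, a mitochondrial protein gene, stood at -0.19 in WT and 0.84 on the array labelled Mef2d KO, a difference of 1.02 ± 0.20. Cstf1, a subunit of the cleavage stimulation factor of mRNA 3′ ends, stood at 2.72 and 3.35, a difference of 0.62 ± 0.20. The next measured genes did not share the direction, with -0.36 for Mc3r on one side and -0.88 for Cass4 on the other. With normexp background the trio kept values of 0.87, 1.22 and 0.59. Along the 16192 genes read on both arrays and placed in chromosome order, 5 runs of at least 3 adjoining genes were each 1.5-fold or more higher, and this was 1 of them. These neighbours were looked up after the value of Aurka was seen.

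**Figure D2:**
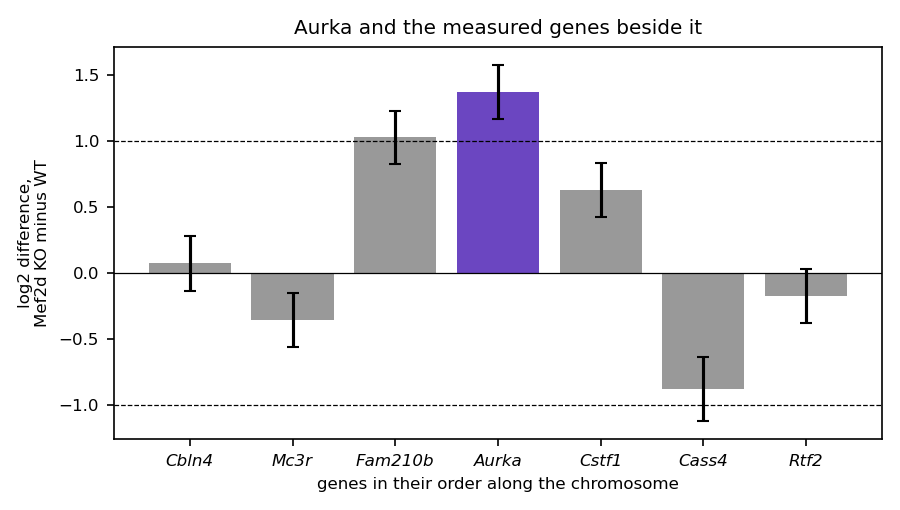
Log2 difference (array labelled Mef2d KO minus WT) of Aurka and the 3 nearest genes on either side that were well above background on both arrays, in chromosome order; bars start at 0, error bars are the scanner error and dashed lines mark 2-fold. Fam210b (1.02), Aurka (1.37) and Cstf1 (0.62) point up, and Mc3r (-0.36) and Cass4 (-0.88) point down.

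Aurka and Cstf1 are read in opposite directions from starts 433 bases apart, so the 250 bases before each start share 68 bases. Both stretches are shown because these 2 adjoining genes were higher together. They are RefSeq promoter sequences of build GRCm38.p6, Aurka at chr2:172370571-172370820 on the minus strand and Cstf1 at chr2:172370753-172371002 on the plus strand. Capitals mark CCAAT, the box bound by NF-Y, on either strand.
Aurka: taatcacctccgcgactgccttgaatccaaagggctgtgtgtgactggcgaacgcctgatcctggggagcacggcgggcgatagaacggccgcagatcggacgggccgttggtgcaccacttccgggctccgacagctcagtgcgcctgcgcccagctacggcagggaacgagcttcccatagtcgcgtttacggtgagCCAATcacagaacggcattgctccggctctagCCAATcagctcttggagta
Cstf1: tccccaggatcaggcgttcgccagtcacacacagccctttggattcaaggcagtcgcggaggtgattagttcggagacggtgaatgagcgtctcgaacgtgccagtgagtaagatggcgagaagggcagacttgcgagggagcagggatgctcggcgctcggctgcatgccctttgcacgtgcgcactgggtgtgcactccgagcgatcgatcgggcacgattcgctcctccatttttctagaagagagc
The Aurka stretch holds CCAAT 51 and 19 bases before the start, and the window that goes on 50 bases past the start holds TTTGAA from base 33 after it. TTTGAA is the core of the CHR element, through which the DREAM complex holds mitotic genes low in resting cells. In the window of Cstf1, searched over the same stretch before and after the start, neither was found.

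The remaining genes of the group were closer together. Ccna2, cyclin A2 of S phase and early mitosis, stood at 0.19 in WT and 0.82 on the array labelled Mef2d KO, with signals of 922 and 1520. The difference was 0.63 ± 0.20, or 1.55-fold, and lay between 0.62 and 0.81 under the other settings. The B-type cyclins trigger entry into mitosis with Cdk1, and none of these genes was 1.5-fold apart by its brightest probe. Ccnb1 differed by 0.29 ± 0.23, with values from 0.072 (normexp background) through 0.51 (quantile normalization) to 0.56 (cyclic loess), while a dimmer probe, above background in WT only, gave -0.46. The differences were -0.11 ± 0.21 for Ccnb2 and -0.095 ± 0.27 for Cdk1. That of Cdk1 was 0.29 with quantile normalization and 0.33 with cyclic loess. A dimmer Cdk1 probe, above background in WT only, gave -0.43, and another, above background on neither array, gave -1.29. The mean over the 3 Cdk1 probes was -0.60. Plk1, the polo kinase of mitotic entry, stood at -0.036 and 0.093. Foxm1, the transcription factor of G2 and M phase genes, was dim at -3.93 and -3.85. Of the 8 genes of this group read on both arrays, 3 had a negative difference, and none did with median scaling.

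The spindle checkpoint genes Bub1b and Bub1 were lower. Bub1b encodes BubR1, which inhibits the anaphase-promoting complex until all chromosomes are attached. Its signal was 210 in WT and 112 on the array labelled Mef2d KO, levels of -1.94 and -2.93. The difference of -0.99 ± 0.21 (1.98-fold) reached 2-fold at -1.005 when the percentile was taken over detected probes alone, and was -0.76 with normexp background. Bub1, the kinase that recruits BubR1 to kinetochores, was printed in 10 spots on each array. The WT spots ranged from -5.37 to -4.95 with a median of -5.03, and those of the other array from -6.08 to -5.34 with a median of -5.64. The ranges overlapped slightly, all 10 WT spots and 6 of the others were well above background, and each of the 10 positions was lower on the array labelled Mef2d KO. The mean difference was -0.63 ± 0.24 (SD over 10 spots of 1 array pair), but normexp background gave -0.23, cyclic loess -0.21 and quantile normalization -0.058. The normexp offset of 50 exceeds the Bub1 signals of 24.3 and 16.9.

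The activator of the anaphase-promoting complex and its ubiquitin enzyme had positive differences. Cdc20 stood at -2.11 in WT and -1.77 on the array labelled Mef2d KO (0.34 ± 0.21). Ube2c, the E2 enzyme of the same complex, stood at -3.32 and -3.18 (0.14 ± 0.22), its other probe gave 0.35, and the first gave -0.030 with normexp background. Ube2t, an E2 enzyme of the Fanconi anaemia DNA repair pathway, was not well above background in WT (signal 12.7) and was on the other array (45.6). This gives a bound of at least 2.88-fold higher, and with normexp background, whose offset of 50 exceeds both signals, the difference was 0.36. Of the 136 genes read only on the array labelled Mef2d KO, 5 were at least 2-fold higher by the bound. Of the 923 read only in WT, 175 were at least 2-fold lower. These are 0.472% and 16.5% of the 1059 genes read on 1 array only.

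The promoter stretch of Bub1b is shown beside that of Aurka because both windows hold TTTGAA and CCAAT while their levels differed in opposite directions. It is the RefSeq sequence of GRCm38.p6 at chr2:118597961-118598210 on the plus strand, with CCAAT (read here on the other strand) in capitals. TTTGAA follows from base 41 after the start, beyond the printed stretch.
Bub1b: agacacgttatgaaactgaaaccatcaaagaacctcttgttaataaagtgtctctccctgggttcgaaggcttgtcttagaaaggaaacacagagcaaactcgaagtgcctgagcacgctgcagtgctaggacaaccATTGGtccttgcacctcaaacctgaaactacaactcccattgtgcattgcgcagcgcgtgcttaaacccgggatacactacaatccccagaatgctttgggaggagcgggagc

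Of the kinesins and centromere proteins, Cenpe was 1.5-fold lower. Cenpe encodes CENP-E, the kinesin that moves chromosomes to the spindle equator. Its signal was 1323 in WT and 821 on the array labelled Mef2d KO, levels of 0.71 and -0.064. The difference of -0.78 ± 0.20 (1.71-fold lower) lay between -0.79 and -0.60 under the other settings. Kif11, the motor that pushes spindle poles apart, was dim at -4.56 and -4.95 (-0.40 ± 0.29, and 0.032 with cyclic loess or quantile normalization). Kif20a, a kinesin of cytokinesis, differed by -0.18 ± 0.22 and Cenpa, the centromeric histone H3, by -0.033 ± 0.21. Kif23, a second kinesin of cytokinesis, was read only on the array labelled Mef2d KO, at least 1.32-fold higher by its bound. That bound, 0.40 in log2, was within its scanner error of 0.47. With normexp background, whose offset of 50 exceeds its signals of 13.1 and 20.8, the Kif23 difference was 0.044. Cenpf, a large kinetochore protein gene, was not well above background on either array. The 4 genes read on both arrays were all negative, but 3 were with normexp background, 2 with median or quantile scaling and 1 with cyclic loess.

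Of the common markers of dividing cells, Mki67 was lower by less than 1.5-fold and Top2a did not differ beyond its scanner error. Mki67 encodes the Ki-67 protein that coats mitotic chromosomes. By its brighter probe it stood at -1.98 in WT and -2.54 on the array labelled Mef2d KO (-0.56 ± 0.21), and by its other probe at -2.72 and -2.89 (-0.17 ± 0.21). The probes of Mki67 thus differed in size but not in sign. Top2a, the topoisomerase that untangles replicated chromosomes, stood at -4.73 and -5.02 (-0.29 ± 0.32), and was 0.14 with cyclic loess and 0.17 with quantile normalization.

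Dim probes read lower on the array labelled Mef2d KO, where 2233 of the 3071 genes with a mean level below -3 were negative. Controls spiked in at equal amounts showed the same trend. Over 35 spots each, the control at a WT level of -4.20 had a median difference of -0.74, the one at -5.38 of -1.81, the one at -2.84 of -0.11, and those at -1.80 and -0.096 of -0.031 and 0.0038. Of the 37 genes, 9 had a mean level below -3, and 6 of these were negative with a median of -0.18, against -0.21 for all genes below that level. The other 28 had a median of 0.037 (all genes 0.014). Bub1 lies in the range where the controls moved, whereas the mean levels of Aurka, Cdt1, Ccna2, Cenpe and Bub1b lie where the controls differed by -0.11 to 0.022.

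**Figure D3:**
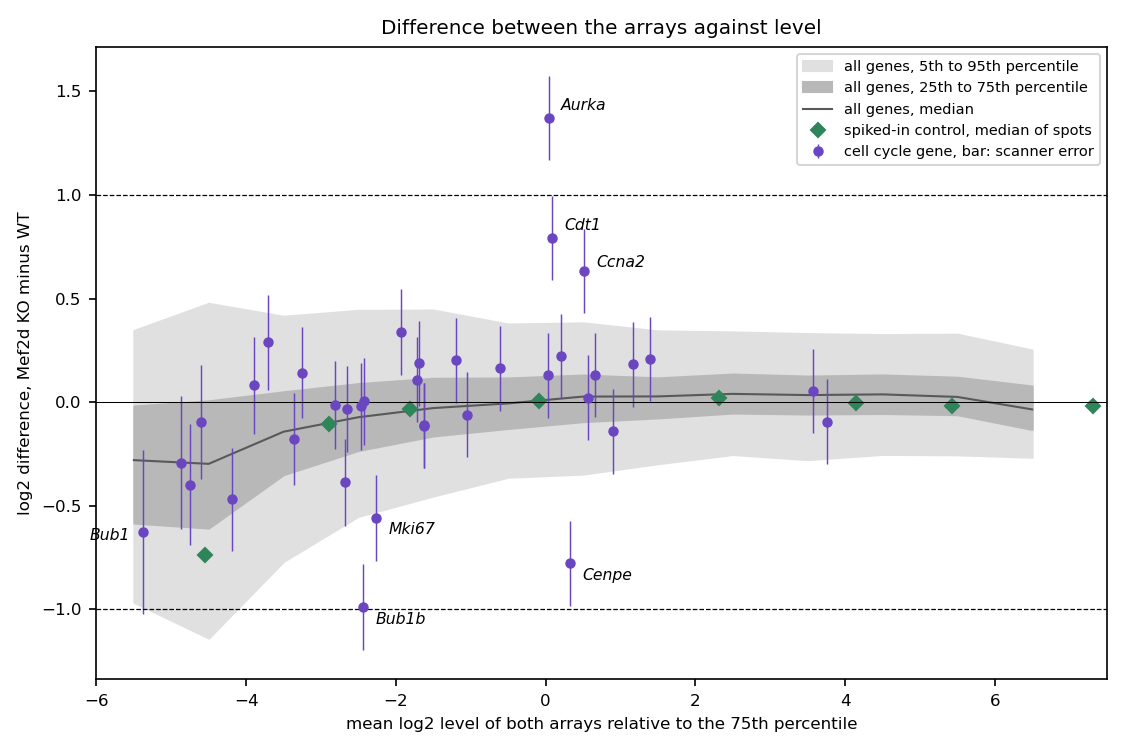
Log2 difference (array labelled Mef2d KO minus WT) against the mean log2 level for the 37 genes read on both arrays (purple, bars are the scanner error), with the percentiles of all genes in grey. Green diamonds are the spiked-in controls with most spots well above background on both arrays. Aurka (1.37), Cdt1 (0.79), Ccna2 (0.63), Cenpe (-0.78) and Bub1b (-0.99) lie clear of the 5th to 95th percentile band of all genes, Mki67 (-0.56) at its lower edge and Bub1 inside it.

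Further replication genes also had a median near 0, with a narrower spread than the 43. The range from their 25th to their 75th percentile was 0.19, against 0.32 for the 37 genes read on both arrays. Of 42 on a list of other replication factors, 41 were read on both arrays, with a median of 0.035. Prim2, the large primase subunit that starts new strands, was 2-fold higher (-3.35 in WT and -2.17 on the array labelled Mef2d KO, 1.18, and 0.81 with normexp background). None was 2-fold lower, and Mcm10, an initiation factor, differed by -0.68. The GINS helicase subunits Gins1 (-0.0083), Gins2 (-0.073) and Gins3 (0.0057) were level, and Gins4 differed by 0.27 ± 0.20. The 5 clamp loader (RFC) subunits lay between 0.0015 and 0.40, and the 5 origin recognition subunits read on both arrays between -0.024 and 0.31.

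Of 52 other mitosis genes 39 were read on both arrays, 26 of them negative (66.7%), with a median of -0.12. Over all genes 51.2% were negative, and 72.7% of those with a mean level below -3. This median turned to 0.053 with median scaling, 0.018 with cyclic loess and 0.0078 with quantile normalization, and 14, 18 and 19 genes were then negative. Spc25, a subunit of the NDC80 kinetochore complex, had the largest difference. It stood at 4.75 in WT and 2.88 on the array labelled Mef2d KO, a difference of -1.88 that lay between -1.89 and -1.70 under median scaling, cyclic loess and normexp background. The other subunits did not share it in size, with Ndc80 at -0.57, Nuf2 at -0.67 and Spc24 at -0.14. Cdc25c, the phosphatase that activates Cdk1, was also 2-fold lower (-3.34 and -4.72, -1.38, and -0.76 with normexp background). No gene of this list was 1.5-fold higher, and 6 (15.4%) were 1.5-fold lower, against 5.45% of all genes and 19.4% of those with a mean level below -3.

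Inhibitors of the cycle differed in both directions. Of 30 inhibitors and regulators read on both arrays none was 2-fold apart, 15 were negative (5 with median scaling), and the median was 0.0020. The CDK inhibitors Cdkn1a (p21), Cdkn1b (p27) and Cdkn1c (p57) differed by 0.23, -0.015 and -0.14. Of the INK4 inhibitors of CDK4 and CDK6, Cdkn2b (-0.0020) and Cdkn2d (-0.065) were level. Cdkn2a (-0.64 ± 0.33) and Cdkn2c (-0.61 ± 0.21) were past 1.5-fold lower by the main values. Cdkn2a was dim, at a mean level of -5.09, in the range where the spiked-in controls moved. Its difference shrank to -0.14 (quantile), -0.22 (cyclic loess) and -0.20 (normexp), and to -0.37 as the mean over its 2 probes. The normexp offset of 50 exceeds its signals of 29.6 and 20.1. Cdkn2c differed by -0.50 (quantile), -0.49 (cyclic loess) and -0.41 (normexp). In this list 3 genes (10%) were 1.5-fold lower and 1 (3.33%) higher, against the 5.45% and 2.08% over all genes. Pkmyt1, which holds Cdk1 inactive, differed by -0.69 and Btg2, an antiproliferative gene, by 0.61. Of 21 genes of retinal progenitors 19 were read on both arrays, none 1.5-fold apart, with a median of 0.011. Of these 19, 9 were negative and 10 positive. Sox2, which Müller glia keep, differed by -0.18 and Hes1, a Notch target, by -0.28, while the neurogenic factors Atoh7 and Neurog2 differed by 0.51 and 0.49, the Notch ligand gene Dll1 by 0.40 and Hes5 by 0.37.

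**Figure D4:**
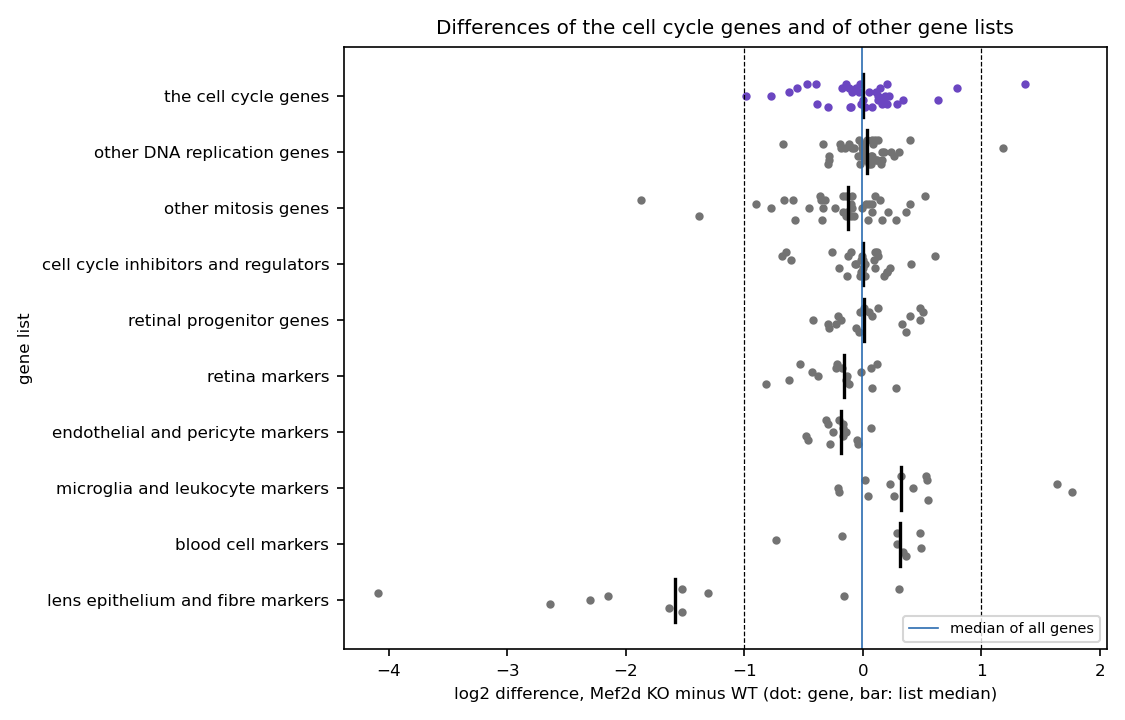
Log2 difference (array labelled Mef2d KO minus WT) of every gene read on both arrays in the 43-gene set and in 9 other lists; each dot is a gene, the black bar the list median and the dashed lines 2-fold. The cell cycle genes centre at 0.0036 and Aurka is the only dot past 2-fold, while Spc25 (-1.88) and Cdc25c (-1.38) lie past it among other mitosis genes and the lens markers centre at -1.58.

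Cell type markers differed between the arrays. Of the 16 retina markers 12 were negative, with a median of -0.15. With median scaling 7 were negative and the median turned to 0.024. Their summed signals were 944440 in WT and 805951 on the array labelled Mef2d KO. The rod genes Sag (-0.82) and Gngt1 (-0.62) were past 1.5-fold lower. Of 11 lens markers 10 were read on both arrays and 8 were at least 2-fold lower (median -1.58, and -0.97 with normexp background), and their summed signal was 98983 in WT and 23731 on the array labelled Mef2d KO. Lim2 was not well above background on the latter. Of 13 microglia and leukocyte markers 11 were positive (median 0.32), with Cd74 (1.77) and Ly86 (1.64) at least 2-fold higher, and summed signals of 29405 and 35875. Blood cell markers had a median of 0.31 with summed signals of 26512 and 35675, and Cd3g was not well above background on the array labelled Mef2d KO. Endothelial and pericyte markers had a median of -0.18, with 13 of 14 negative (7 with median scaling) and summed signals of 21781 and 21311. Astrocyte and oligodendrocyte lineage markers had a median of -0.15, turning to 0.024 with median scaling, with summed signals of 8105 and 8628 and Olig1 not well above background on either array. The part of these cells in the differences of the cell cycle genes was not tested.

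Promoter sequence was not used to choose the genes. RefSeq windows from 250 bases before to 50 after the start (GRCm38.p6) were matched for 35 of the 43 genes, 38 windows in all. CCAAT on either strand was in 81.6% of these windows, against 37.4% of all 32851 windows. TTTGAA was in 42.1% against 17.9%, and an E2F-type site, TTTGGCGC or TTTCCCGC, in 21.1% against 1.56%. These shares are descriptions with no test, and most of the 38 windows lack TTTGAA, as most lack an E2F-type site. The median GC content was 58.3%, against 52.7% for all windows. The 14 genes with TTTGAA that were read on both arrays ranged from -0.99 to 1.37 with a median of -0.024, and the 17 without it from -0.78 to 0.79 with a median of 0.021. The 7 with an E2F-type site had a median of 0.19 and 1 negative difference, against a median of -0.027 and 14 negative of the 24 without it. Of those 7, 4 are MCM genes, and the others are Cdt1, Cdk2 and E2f2.

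Mcm5 is shown as an example of a licensing gene with both kinds of site. The stretch is chr8:75109259-75109508 on the plus strand of GRCm38.p6, and capitals mark an E2F-type site (read here on the other strand) 149 bases before the start and CCAAT 77 and 22 bases before it.
Mcm5: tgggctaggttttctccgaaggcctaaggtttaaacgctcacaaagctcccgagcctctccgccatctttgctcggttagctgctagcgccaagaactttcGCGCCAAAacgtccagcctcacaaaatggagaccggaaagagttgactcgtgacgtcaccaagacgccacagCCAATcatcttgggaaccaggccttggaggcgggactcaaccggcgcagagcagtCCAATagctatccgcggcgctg

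**Figure D5:**
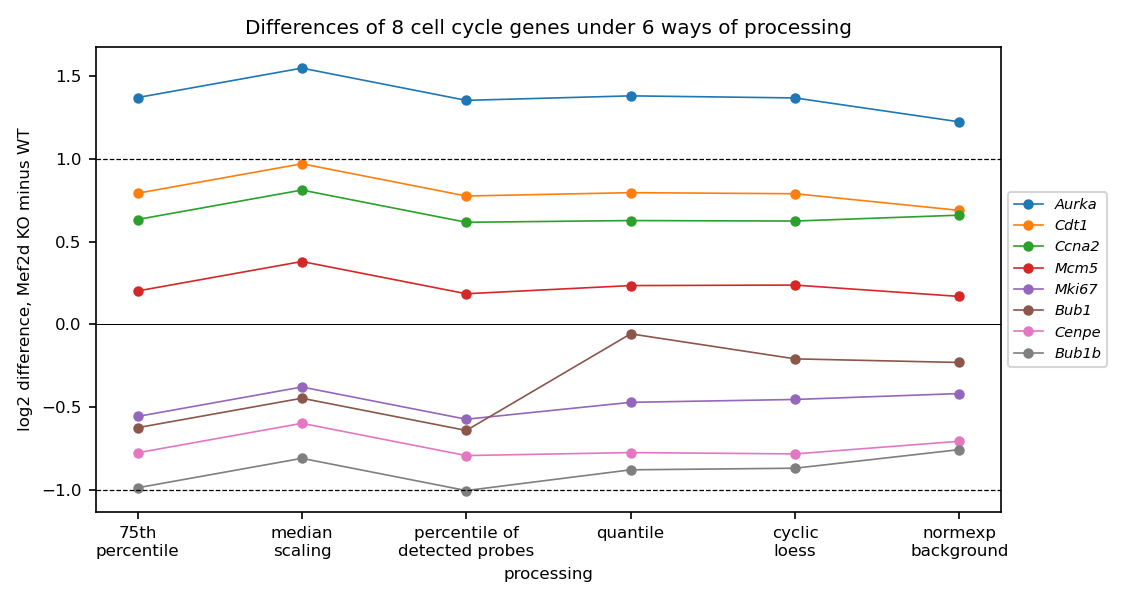
Log2 difference (array labelled Mef2d KO minus WT) of 8 of the 43 genes under 6 ways of scaling or background correction, with dashed lines at 2-fold. Aurka stays above 2-fold throughout (1.22 to 1.55), Bub1b touches 2-fold in 1 setting (-1.005), and Bub1 moves from -0.63 to -0.058 with quantile normalization.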

How the data were processed

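Retina RNA of 1 sample labelled WT and 1 labelled Mef2d KO, each at postnatal day 14, was measured on 2 arrays. The deposited intensity values and 0/1 flags were made by Agilent Feature Extraction 10.10.1.1 and are background-subtracted and detrended, per the file headers. The deposited series table gave these signals multiplied by 1 constant per array (1.88 for WT, 1.76 for the other). It is linear and not centred, with column medians of 155.1 and 136.6, and the origin of the constants is unknown.

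Main values were log2 processed signals minus each array's 75th percentile over 59305 probe spots. Controls and outlier spots (106 and 126) were left out, no spot was saturated, and spots of a probe were averaged. Of 55669 probes, 27231 were named through RefSeq and 53 by the file's own name. The probe with the highest mean level stood for a gene. A probe with several spots counted as well above background where at least 50% of them were flagged so. A gene read on 1 array only got a bound, set against the dim array, at its own value or the lowest detected value there, whichever was higher. The bound leaves out the scanner error. The number of arrays limits the precision. Alternatives (other scaling, normexp with offset 50 on median signals, the series table, other probe rules and filters) are in the closing section. The genes, lists and rules were chosen with earlier results of these data known. The rule allowed naming all 43 genes, the first 3 genes of each other list and those 2-fold apart, and Mef2d, Xist and Eif2s3y as checks; not all of these are printed, and some values of single marker genes are not reported here. Genes named besides these, among them Gmnn, Tpx2, Mcm10, Cdkn2a, Atoh7, Pkmyt1, Btg2 and the neighbours of Aurka, were chosen after their values were seen. The promoter motifs were also chosen after the differences had been seen. R 4.3.3, limma 3.58.1, Python 3.11.15, numpy 2.4.6, pandas 2.3.3 and matplotlib 3.10.9 were used.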

Additional observations from a re-analysis of the deposited data

How the results depend on the processing

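The single higher call among the 37 genes, Aurka, held under median scaling, the percentile over detected probes, quantile normalization, cyclic loess, normexp background, the series table, the mean over probes and RefSeq names alone. The count at least 2-fold lower was 0, and 1 (Bub1b) with the percentile over detected probes. Without a filter on dim probes 3 genes were higher, the added ones being Ccne2 and Ube2t, and at 1.5-fold 3 were higher and 3 lower. The median difference of the genes was 0.18 with median scaling, 0.12 with quantile normalization and 0.12 with cyclic loess, where the medians of all genes were 0.17, 0.023 and 0.026. Over the 43 genes, 9 differences moved by more than the scanner error with quantile normalization, 8 with cyclic loess, 4 with the mean over probes and 3 with normexp background. None of the genes past 2-fold changed sign in these settings. Over all genes the 282 lower and 101 higher became 171 and 152 with median scaling, 165 and 158 with quantile normalization, 162 and 158 with cyclic loess, 103 and 62 with normexp background, 1740 and 225 without the filter, and 117 and 78 at mean levels of at least -3. Background limits the dim genes most: Ube2t, Cdc6 and Kif23 were read on 1 array only. No paired analysis was possible because each genotype has 1 array.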

Other observations

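Other genes next to each other also differed together. The 5 runs of at least 3 adjoining genes that were each 1.5-fold or more higher were the trio around Aurka, the group of Nsl1, Batf3 and Atf3, the group of Col27a1, Akna and Whrn, the group of Neu3, Spcs2 and Xrra1, and a trio of olfactory receptor genes. Nsl1 encodes a kinetochore protein, and Atf3 a stress-induced transcription factor. There were 11 such runs of lower genes, and 1 of them joined Chp1 with the mitosis genes Oip5 and Nusap1 (Nusap1 differed by -0.90, and by -0.39 with normexp background). Beside Bub1, the gene Acoxl stood at -1.97 in WT and -4.50 on the array labelled Mef2d KO, a difference of -2.52 (-1.49 with normexp background). Beside Bub1b, both neighbours were lower too, with differences of -0.63 ± 0.21 for Pak6 and -0.40 ± 0.20 for Bmf. The nearest measured neighbours of Cdt1, Ccna2 and Cenpe on both sides differed by -0.30 to 0.29. Among them, Bbs7 (0.29 ± 0.20) shared the direction of Ccna2 and Tacr3 (-0.30 ± 0.20) that of Cenpe. On the other side Exosc9 (-0.11) and Bdh2 (0.19) did not. Cdt1 lay between Piezo1 (-0.031) and Aprt (0.13).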
